A study of Mus musculus with 7 samples.

Results

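The genes described are 10 that store iron or defend cells against oxidants: the ferritin chains Fth1 and Ftl1, the superoxide dismutase Sod2, the thioredoxin reductase Txnrd1, the peroxiredoxins Prdx5 and Prdx6, the sulfiredoxin Srxn1, the haem oxygenase Hmox1, the glutathione synthesis gene Gclm and the cystine transporter Slc7a11. They were taken by name from 16505 gene symbols with a molecule in any of the 7 deposited tables. Of the 10, 9 had a row in all 7 tables and Srxn1 in 5, because the tables of run 1 list detected genes only. Neutrophils sorted as CD11b+ Ly6G+ PI-negative live cells came from male C57BL/6J mice. Healthy neutrophils were profiled from blood, bone marrow and spleen in 2 runs (1 library per tissue and run, each a pool of 3 mice, aged 6 weeks in run 1 and 8 weeks in run 2). Within a run the same animals gave all tissues, by the study's methods. Age and run cannot be told apart. A further library held 5 conditions marked by hashtag oligomers, each also a pool: healthy blood, blood and joint of mice with K/BxN serum transfer arthritis, lung after intranasal IL-1β and peritoneum after intraperitoneal IL-1β. Arthritic mice received 150 µl of pooled serum intraperitoneally on days 0 and 2 and were taken on day 7. The IL-1β mice received 25 ng and were taken after 3 h, and the mice of the arthritis and IL-1β models were 8 weeks old. Agent, site and time differ together between the joint and both IL-1β sites, and the route also differs for the lung, so that these cannot be told apart. All groups were wild type.

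Ferritin is a hollow shell of heavy (Fth1) and light (Ftl1) chains that holds iron in a form that cannot catalyse radical formation, and the heavy chain carries the ferroxidase activity. The transcription factor NRF2, encoded by Nfe2l2, drives many antioxidant genes, among them Srxn1, Gclm, Txnrd1, Slc7a11, Hmox1 and both ferritin genes, through antioxidant response elements. Slc7a11 with its partner Slc3a2 imports the cystine from which glutathione is made. Neutrophils produce superoxide with their own NADPH oxidase when they are activated, and Sod2 converts superoxide to hydrogen peroxide in mitochondria.

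Ferritin mRNAs carry an iron-responsive element in the 5′ leader, a hairpin that iron regulatory proteins bind to block translation when iron is scarce. The element is shown because a level of ferritin mRNA, the quantity measured here, is not a level of ferritin protein. Capitals mark the bulged C and the CAGTG of the loop, written as DNA in the direction of the mRNA, from GENCODE M21 transcripts on GRCm38. It lies at chr19:9982731-9982756 (plus strand) in Fth1 and at chr7:45459783-45459808 (minus strand) in Ftl1, and 23 of the 26 bases are alike. Of the 8 annotated transcripts searched, Ftl1-204 (leader of 20 bases) and Fth1-206 (156 bases) did not hold it.

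Fth1: tttcctgCttcaaCAGTGcttgaacg

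Ftl1: tgtcttgCttcaaCAGTGtttgaacg

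A window from 250 bases before to 50 after the start site was listed by RefSeq (GRCm38.p6) for 8 of the 10 genes, with 11 windows in all. These were searched on both strands for TGACNNNGC, the core of the antioxidant response element, which 12.4% of all 32851 promoter windows hold. A match was found in 3 of the 11 windows, 1 in each of 3 of the 8 genes. It lay 32 bases after the start site of Srxn1 (chr2:152105542-152105570 is printed, within an exon in 2 of its 3 annotated transcripts), 130 bases before that of Gclm (chr3:122245363-122245491) and 88 bases before 1 of the 3 start sites of Txnrd1 (chr10:82859054-82859182, within an intron of 1 longer transcript). No match was found in the windows of Slc7a11, Ftl1, Fth1, Sod2 and Prdx5. The matches are shown because Srxn1, Gclm and Txnrd1 are textbook NRF2 targets that moved differently here. Capitals mark the match, which lies on the minus strand and so reads as its reverse complement, and all 3 genes are on the plus strand.

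Srxn1: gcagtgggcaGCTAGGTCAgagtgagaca

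Gclm: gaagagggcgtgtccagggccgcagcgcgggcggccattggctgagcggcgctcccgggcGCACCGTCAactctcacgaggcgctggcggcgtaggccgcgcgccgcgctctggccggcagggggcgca

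Txnrd1: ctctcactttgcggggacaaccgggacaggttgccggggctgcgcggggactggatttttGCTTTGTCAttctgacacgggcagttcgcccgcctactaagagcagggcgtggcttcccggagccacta

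Values are counts of unique molecular identifiers (UMIs), each standing for 1 captured mRNA molecule, summed over the neutrophils of a library or condition and scaled to 1000000 UMIs per library or condition (CPM). Healthy neutrophils were the cells with at least 3% of UMIs from S100a8 and S100a9 (12755 of 16907 cells), and inflamed ones the cells the authors had assigned to neutrophil reference populations (4852 of 4856). All 11 neutrophil markers checked were detected in every unit, but also in the cells left out of every healthy library. They include S100a8 and S100a9, which selected the healthy cells, so detection does not speak for cell identity. Summed UMIs were 1360064 to 9104133 per healthy library and 942688 to 10293966 per condition. Blood of run 2 and spleen of run 2 stood apart in other cells' RNA: the 8 erythroid markers summed to 30356 CPM in blood of run 2 against 254 to 915 in the other healthy libraries, and the 8 B-cell markers to 903 in spleen of run 2 against 4.47 to 330. Monocyte and macrophage markers (16 genes) summed to 354.5 to 1474 in healthy libraries and to 350 to 537 in the conditions. B-cell markers moved with the conditions, at 209.8 CPM in healthy blood, 125 in arthritic blood, 51.5 in joint, 22.7 in lung and 28.6 in peritoneum, and in healthy blood 3 of the 8 were detected, with Cd79a, Cd79b and Ms4a1 at 0. The part of these cells in the results was not tested, beyond the fits without marked cells given below. Libraries shared between 0 and 36 cell barcodes. Intervals are exact and cover counting error only.

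In healthy mice the ferritin chains and the cystine transporter were higher in blood than in bone marrow, and the peroxiredoxin Prdx6 was lower. Fth1 stood at 2102 and 2377 CPM in bone marrow (run 1, then run 2), 3107 and 7072 in the spleen, and 5782 and 8201 in blood. Ftl1 stood at 4436 and 3740 in bone marrow, 5728 and 9268 in the spleen, and 10776 and 10291 in blood. Slc7a11 was at 22.1 and 55.8 in bone marrow, at 45.4 and 218 in the spleen, and at 228 and 193 in blood. For these 3 genes both blood libraries lay above both bone marrow libraries, a separation whose share over all genes was not counted. The spleen library of run 1 lay near bone marrow while that of run 2 lay near blood.

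By edgeR's quasi-likelihood test with the run as a block, blood exceeded bone marrow by 1.33 ± 0.25 on the log2 scale for Fth1 (SE, adjusted p = 0.0122), by 1.08 ± 0.24 for Ftl1 (adjusted p = 0.0217) and by 2.35 ± 0.47 for Slc7a11 (adjusted p = 0.0158), with 2 libraries per tissue. Prdx6, which reduces hydrogen peroxide and phospholipid peroxides, was at 282 and 245 CPM in bone marrow, 252 and 114 in the spleen, and 112 and 94.2 in blood, and was 1.65 ± 0.37 lower in blood (log2 difference -1.65, adjusted p = 0.0228). So 3 of the 10 genes were called higher and 1 lower, where 11.7% of the 7809 genes tested were called higher and 9.94% lower (21.7% in either direction). Over the 9 members other than Srxn1 the median log2 difference was -0.01, beside -0.02 over all genes tested. The 6 platelet markers moved with this contrast. They summed to 108 and 164 CPM in blood, to 3.06 and 4.72 in bone marrow and to 0 and 5.62 in the spleen, and their part in the result was not tested. With library totals in place of TMM factors the median of all genes moved to 0.26, and 12.6% of genes were called higher and 6.13% lower. No member was called between spleen and bone marrow (2.75% of all genes called, and DESeq2 called 1 member, Fth1) or between spleen and blood (0.0512% called).

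The 4 calls did not all hold under other choices. Without the block 0 members were called, and over all genes 81 were called higher and 83 lower of 7809. With either blood replicate left out, blood holds 1 library. The calls were lost there too, for the members and for most other genes. The log2 difference of Slc7a11 ranged from 1.44 to 3.15 over these fits. When cells with markers of other lineages were left out, Ftl1 was not called. Without spleen replicate 1, 8 members were called between blood and bone marrow (30% of 8757 genes in either direction), and without spleen replicate 2, 7 were called (28.6% of 8443).

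**Figure D1:**
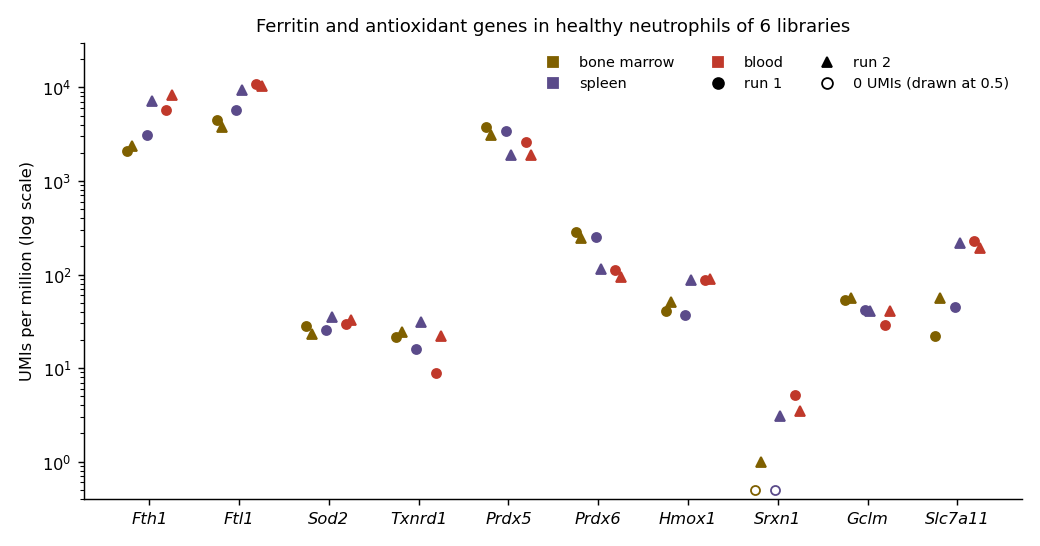
Level of each gene in healthy neutrophils, in CPM on a log axis, for 3 tissues (colours) and 2 runs (circles and triangles), 1 point per library. For Fth1, Ftl1 and Slc7a11 both blood libraries lie above both bone marrow libraries, and for Prdx6 below them. Hmox1, Sod2 and Srxn1 also lie above and Prdx5 and Gclm below, without a call in the main fit.

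The other 6 genes passed no test between healthy tissues in the fit of all libraries and neutrophils. Under at least 1 alternative, Prdx5, Gclm and Txnrd1 were called lower and Hmox1 higher in blood than in bone marrow. The mitochondrial and peroxisomal peroxiredoxin Prdx5 stood at 3755 and 3101 CPM in bone marrow, 3440 and 1872 in the spleen, and 2633 and 1884 in blood (log2 difference of blood -0.92 ± 0.31, adjusted p = 0.0793). Gclm, the modifier subunit of the rate-limiting enzyme of glutathione synthesis, stood at 53.7 and 56.0 in bone marrow, 41.3 and 40.9 in the spleen, and 28.7 and 40.8 in blood (-0.92 ± 0.28, adjusted p = 0.0556). For both genes the blood libraries lay below the bone marrow libraries without overlap. With 2 libraries on each side such a separation arises easily by chance, and its share over all genes was not counted. Hmox1, which breaks haem down and releases its iron, stood at 41.2 and 50.4 in bone marrow, 37.2 and 86.9 in the spleen, and 86.8 and 88.8 in blood (0.66 ± 0.24, adjusted p = 0.0992). Sod2 ranged from 23.3 to 35.3 over the 6 libraries, with both spleen libraries (25.7 and 35.3) overlapping the other tissues, while blood (29.4 and 32.5) lay above bone marrow (28.5 and 23.3). Txnrd1, which keeps thioredoxin reduced, ranged from 8.82 to 31.2, lowest and highest in blood of run 1 and spleen of run 2. Srxn1, which repairs over-oxidised peroxiredoxins, was near the limit of detection, with 7 UMIs (5.15 CPM) and 12 UMIs (3.45) in blood, 9 UMIs (0.99) in bone marrow of run 2, 6 UMIs (3.07) in spleen of run 2 and none in bone marrow and spleen of run 1, which allows up to 0.71 and 1.12 CPM. No fold is given for it between tissues.

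Neutrophils at different stages were mixed in unequal shares in these libraries. Camp, Ngp and Ltf, secondary granule genes that immature neutrophils transcribe in the marrow, took at least 1% of UMIs in 69.6% of marrow cells in run 1 and 54.6% in run 2. The shares were 46.5% and 3.43% for the spleen and 12.3% and 1.17% for blood. Cells above this limit are called granule-high and the rest granule-low. They were compared within the 5 libraries that held at least 50 cells of each class. These came from 2 runs, with the same mice for all tissues of a run, and so are not independent pools. Blood of run 2 had 43 granule-high cells and did not enter.

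Within libraries both ferritin chains, Slc7a11 and Hmox1 were higher in granule-low cells, and both peroxiredoxins were lower. Fth1 was at 1205 to 1602 CPM in the granule-high cells of the 5 libraries and at 4468 to 8649 in the granule-low cells, so that the classes did not overlap. Ftl1 went from 1973 to 3475 in granule-high cells to 6584 to 14708 in granule-low cells. Slc7a11 was at 14.1 to 60.3 in granule-high cells and at 56.0 to 293 in granule-low cells, and Hmox1 at 13.6 to 36.3 and 87.3 to 115. Each of these 4 genes was higher in the granule-low class in 5 of 5 libraries.

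In the fit with the library as a block, granule-low cells were higher by 1.83 ± 0.18 on the log2 scale for Fth1 (SE, adjusted p = 2.09e-05), by 1.61 ± 0.18 for Ftl1 (adjusted p = 4.58e-05), by 2.17 ± 0.21 for Slc7a11 (adjusted p = 1.54e-05) and by 1.67 ± 0.22 for Hmox1 (adjusted p = 1.23e-04). The peroxiredoxins went the other way. Prdx5 stood at 3003 to 3877 CPM in granule-high and 1697 to 3149 in granule-low cells (log2 difference -0.91 ± 0.19, adjusted p = 0.0030), and Prdx6 at 149 to 306 and 95.7 to 165 (-1.30 ± 0.16, adjusted p = 8.09e-05). Both were lower in granule-low cells in 5 of 5 libraries.

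Of the 9 members that passed the filter on low counts, 4 were called higher in granule-low cells and 2 lower, beside 22.7% and 19.2% of the 5394 genes tested. The median log2 difference of the 9 was 0.04, and that of all genes tested 0.02. Gclm (0.04 ± 0.23), Sod2 (-0.45 ± 0.24) and Txnrd1 (-0.62 ± 0.26, adjusted p = 0.0791) passed no test. Srxn1 did not pass the filter, with 18 UMIs in granule-low and 4 in granule-high cells over the 5 libraries. The same 4 genes were called higher and both peroxiredoxins lower in all 10 alternatives run, and without blood replicate 1 Txnrd1 was also called lower. With library totals in place of TMM factors the median of all genes moved to 0.33 and the calls over all genes to 31.8% higher and 11.1% lower, with the members' calls as before.

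**Figure D2:**
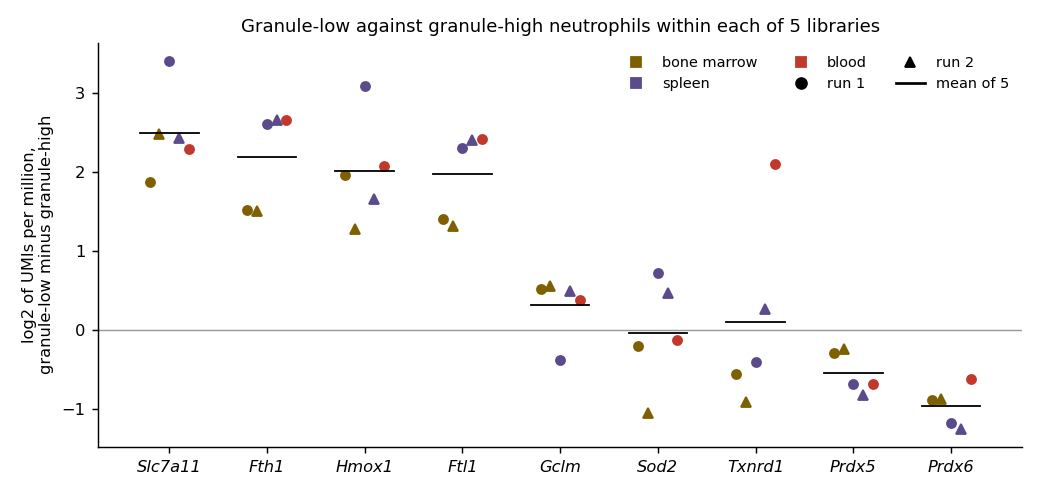
Difference between granule-low and granule-high neutrophils within each of 5 healthy libraries, on the log2 scale of CPM (library totals, no TMM factor), with the mean as a line. Slc7a11, Fth1, Hmox1 and Ftl1 lie above 0 and Prdx5 and Prdx6 below 0 in every library, while Gclm, Sod2 and Txnrd1 lie on both sides.

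The size of the class difference was compared between bone marrow and the other tissues by an interaction term, called for 5.08% of all genes. Prdx5 differed by 0.88 ± 0.20 (log2, adjusted p = 0.0210), since its fall was smaller in bone marrow, at -0.30 and -0.24 on the log2 scale of library totals, than in spleen and blood, at -0.69 to -0.82. Fth1 was 1.512 and 1.502 higher in granule-low cells of bone marrow and 2.61 to 2.66 higher in spleen and blood, but the interaction did not pass (-0.71 ± 0.21, adjusted p = 0.0676). The remaining 7 genes did not pass either.

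When the tissues were compared on granule-low cells alone, a choice made after seeing the data, the picture changed. Blood then exceeded bone marrow by 0.46 for Fth1 (adjusted p = 0.161), 0.28 for Ftl1 (adjusted p = 0.382) and 0.97 for Slc7a11 (adjusted p = 0.0973), and no member was called higher, beside 6.06% of all genes. Prdx5 (-0.90, adjusted p = 0.0177), Prdx6 (-1.15, adjusted p = 0.0043) and Gclm (-1.32, adjusted p = 0.0028) were called lower, beside 6.22%. In spleen against bone marrow the same 3 genes were lower, by -0.92, -0.92 and -1.30, beside 5.34% of all genes, and none was higher, beside 5.36%. When cells with markers of other lineages were left out instead, Fth1 (0.61) and Slc7a11 (1.27) were called higher in blood, beside 10.6% of the 5420 genes tested. Ftl1 was not called there. Prdx5, Prdx6 and Gclm were called lower, beside 8.84%.

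The ratio of the ferritin chains was lowest in bone marrow within each run. In run 1 there were 0.47 Fth1 UMIs for each Ftl1 UMI in bone marrow and 0.54 in both spleen and blood, and in run 2 the ratio was 0.64, 0.76 and 0.80 in the same order of tissues. Within libraries the ratio was 1.17-fold higher in granule-low cells, in 5 of 5 libraries (exact permutation test by sign changes, two-sided p = 0.0625, the smallest that 5 libraries allow). The value of the ratio also depends on how well each mRNA is captured, so it is compared between groups only within a run or library. Ferritin has processed pseudogenes. Those looked up by symbol had no row in the tables, and reads that match several copies may have been lost in counting.

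Inflamed neutrophils are compared with healthy blood of the same library. Each condition is 1 pool of mice, so no test was possible, and a gene is counted as higher or lower from 2-fold upwards. All 4 comparisons share the same healthy blood. Levels of these genes in that blood and in the other healthy blood libraries differed (Prdx5 949 against 1884 to 2633 CPM, Ftl1 5981 against 10291 to 10776), and no comparison was made between this library and the healthy ones. Of the 4852 cells, 1, from lung, was granule-high.

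In the blood of arthritic mice none of the 10 genes reached 2-fold (1% of 5196 genes were higher and 7.31% lower). Prdx5 was at 1.64-fold (interval 1.53 to 1.75) and Slc7a11 at 1.36-fold (1.17 to 1.58), while Fth1 and Ftl1 were at 0.89 and 0.87 of their healthy level. With TMM factors Prdx5 came to 2.13-fold.

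In the joint of the same model 5 of the 9 genes other than Srxn1 were at least 2-fold higher and none lower, beside 9.83% and 21.4% of genes. Srxn1 passed the filter of 10 CPM only through the joint (mean 8.58 CPM over the other 4 conditions), so its call there is not read against the share of all genes, and it is left out of the counts and medians of CPM folds. Fth1 was at 27317 CPM against 6161 in healthy blood, a 4.43-fold difference (interval 4.33 to 4.54). Slc7a11 was at 1399 against 204 (6.87-fold, 6.03 to 7.86), and Prdx6 at 474 against 93.3 (5.08-fold, 4.19 to 6.23). Srxn1 stood at 649 UMIs (63.0 CPM) against 5 UMIs (4.44), a 14.2-fold difference with a wide interval of 6.05 to 43.8. Txnrd1 was 2.72-fold higher (74.9 against 27.6) and Sod2 2.28-fold (58.7 against 25.8). Under 2-fold were Gclm (1.89, interval 1.27 to 2.93), Ftl1 (1.84, 1.80 to 1.89), Prdx5 (1.78, 1.68 to 1.90) and Hmox1 (1.46, 1.19 to 1.81). Against the blood of the arthritic mice, 6 of the 9 genes were at least 2-fold higher in the joint (12.5% of all genes) and none lower (7.72%), the higher ones being the same 5 and Ftl1 at 2.12-fold, and Prdx5 was at 1.09-fold.

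At the IL-1β sites Fth1, Slc7a11, Sod2 and Txnrd1 were at least 2-fold above healthy blood, as in the joint, and Sod2 and Txnrd1 were more than 2-fold higher there than in the joint. In lung Fth1 was at 50366 CPM (8.18-fold, 7.98 to 8.38) and in peritoneum at 46934 (7.62-fold, 7.43 to 7.81). Sod2 went from 25.8 in healthy blood to 1113 in lung (43.2-fold, 29.9 to 64.7) and 1650 in peritoneum (63.98-fold, 44.4 to 95.9), and ranked 25th of 5216 and 11th of 5211 genes by fold. Txnrd1 was at 415 and 472 (15.1-fold, 10.5 to 22.4, and 17.1-fold, 11.9 to 25.5). Slc7a11 was at 2116 in lung (10.4-fold, 9.08 to 11.9) and 1567 in peritoneum (7.70-fold, 6.69 to 8.88). Prdx6 was 3.58-fold higher in lung (335 CPM, interval 2.89 to 4.48) and 1.74-fold in peritoneum (162, 1.35 to 2.25). Srxn1 rested on 19 UMIs in lung (3.24-fold, 1.17 to 11.1) and 9 in peritoneum (2.15-fold, 0.65 to 8.16), and the second interval includes no difference. Prdx5 was at 1.67-fold in lung and 1.84-fold in peritoneum.

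Ftl1 did not share the high level of its partner chain. It was at 3508 CPM in lung and 3415 in peritoneum against 5981 in healthy blood, which is 0.59 and 0.57 of the healthy level in CPM, but 1.08 and 1.09 with TMM factors. Hmox1 was at 37.1 and 52.0 against 88.9, or 0.42 (interval 0.29 to 0.59) and 0.58 (0.41 to 0.83) of healthy blood, and 0.77 and 1.12 with TMM factors. Gclm rested on 21 and 19 UMIs and was at 0.69 (0.37 to 1.27) and 0.87 (0.46 to 1.64) in CPM, and at 1.26 and 1.67 with TMM factors. Of the 9 genes other than Srxn1, 5 were at least 2-fold higher in lung (11% of all genes) and 1, Hmox1, at least 2-fold lower (47.8%). In peritoneum 4 of the 9 were higher (10.7%) and none lower (49.9%). The median fold was 3.58 over the 9 genes and 0.52 over all genes in lung, 1.84 and 0.50 in peritoneum, and 2.28 and 0.74 in the joint.

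The scale matters here because the median gene was low in CPM in the inflamed sites. With TMM factors the folds against healthy blood were 1.32 times as large in the joint, 1.84 times in lung and 1.91 times in peritoneum, and the higher ones among the genes past 2-fold went from 31.5% to 61.8% in the joint, from 18.7% to 50.2% in lung, from 17.7% to 51.5% in peritoneum and from 12.0% to 57.9% in arthritic blood. Of the 9 genes other than Srxn1, 8 were then at least 2-fold higher in the joint, all but Hmox1, and 6 at each IL-1β site, with none lower. Over all genes 14.6% were then higher and 9.05% lower in the joint, 21.7% and 21.5% in lung, 22.2% and 20.9% in peritoneum, and 2.91% and 2.12% in arthritic blood.

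**Figure D3:**
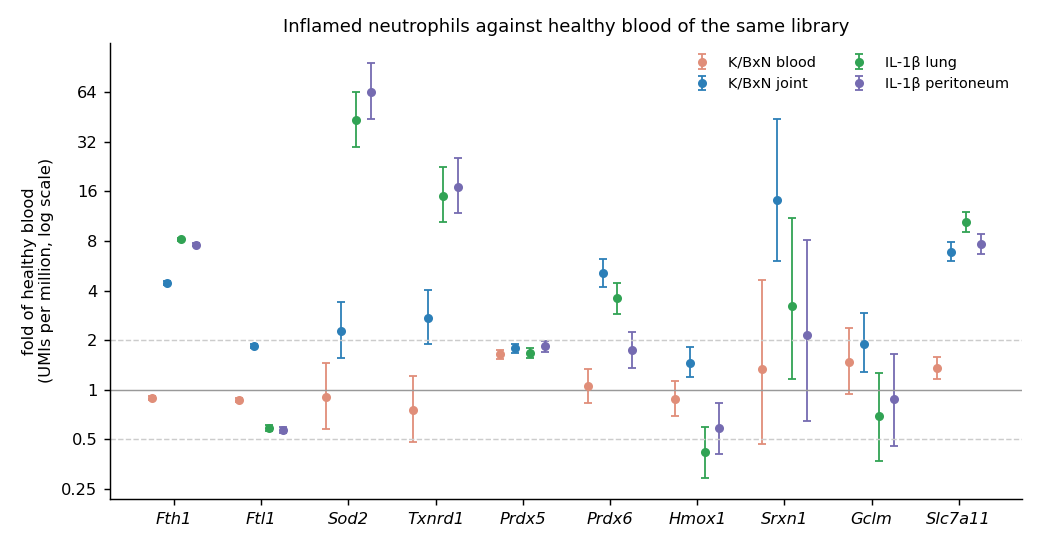
Level of each gene in the 4 inflamed conditions as a fold of healthy blood in the same library, on a log axis, with exact 95% intervals for counting error and dashed lines at 2-fold. Sod2 and Txnrd1 are far higher at the IL-1β sites than in the joint, Srxn1 is highest in the joint, and Ftl1, Hmox1 and Gclm lie above 1 in the joint and below 1 at the IL-1β sites, a direction that changes with the scaling for Ftl1 at both sites, Hmox1 in peritoneum and Gclm at both sites.

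A direct comparison of the joint with the lung does not use healthy blood. Joint neutrophils held 3.14-fold more Ftl1 (interval 3.05 to 3.23), 3.50-fold more Hmox1 (2.64 to 4.76), 4.38-fold more Srxn1 (2.78 to 7.33) and 2.75-fold more Gclm (1.78 to 4.49) in CPM, 3 genes besides Srxn1, where 28.7% of all genes were higher. Lung neutrophils exceeded the joint in Sod2, which in the joint was at 0.053 of its lung level (0.048 to 0.058), and in Txnrd1 at 0.18 (0.16 to 0.20), 2 genes beside 7.24%. Fth1 in the joint was at 0.54 of lung and Slc7a11 at 0.66. With TMM factors the direction stayed the same for all 8 of these genes. Ftl1 came to 2.26-fold, Hmox1 to 2.52 and Srxn1 to 3.16, Gclm no longer reached 2-fold (1.98), and Fth1 (0.39 of lung) and Slc7a11 (0.48) then lay at least 2-fold lower in the joint. Over all genes 15.0% were then higher and 12.3% lower, and the share of higher ones among the genes past 2-fold went from 79.8% to 54.9%. Against the peritoneum Ftl1, Hmox1, Gclm, Sod2 and Txnrd1 passed 2-fold in CPM in the same directions as against the lung, with Prdx6 at 2.92-fold higher in the joint (2.49 to 3.46), so that 4 genes besides Srxn1 were higher (31.3%) and 2 lower (7.76%). With TMM factors Hmox1 (1.73) and Gclm (1.501) no longer reached 2-fold, Ftl1 (2.23), Prdx6 (2.02) and Srxn1 (4.57) did, and Fth1, at 0.40 of its peritoneum level, joined Sod2 and Txnrd1 among the lower ones. Over all genes 16.02% were then higher and 13.4% lower, and the share of higher ones among the genes past 2-fold went from 80.1% to 54.4%. Between the IL-1β sites, Prdx6 alone passed 2-fold in CPM and was at 0.49 of its lung level in peritoneum (0.40 to 0.58, 10.5% of genes lower and 9.08% higher), and with TMM factors it no longer did (1.98-fold lower).

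The ratio of the ferritin chains does not depend on any scaling. There were 1.03 Fth1 UMIs for each Ftl1 UMI in healthy blood (interval 1.00 to 1.07), 1.06 in arthritic blood (1.03 to 1.08), 2.48 in the joint (2.46 to 2.50), 14.4 in lung (13.9 to 14.8) and 13.7 in peritoneum (13.3 to 14.2). Both chains together made up 1.21% of all UMIs in healthy blood, 3.83% in the joint, 5.39% in lung and 5.03% in peritoneum. In the joint both chains stood above healthy blood. With the S100a8 and S100a9 limit added, the ratio in the joint was 2.57, and it moved less in the other conditions.

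**Figure D4:**
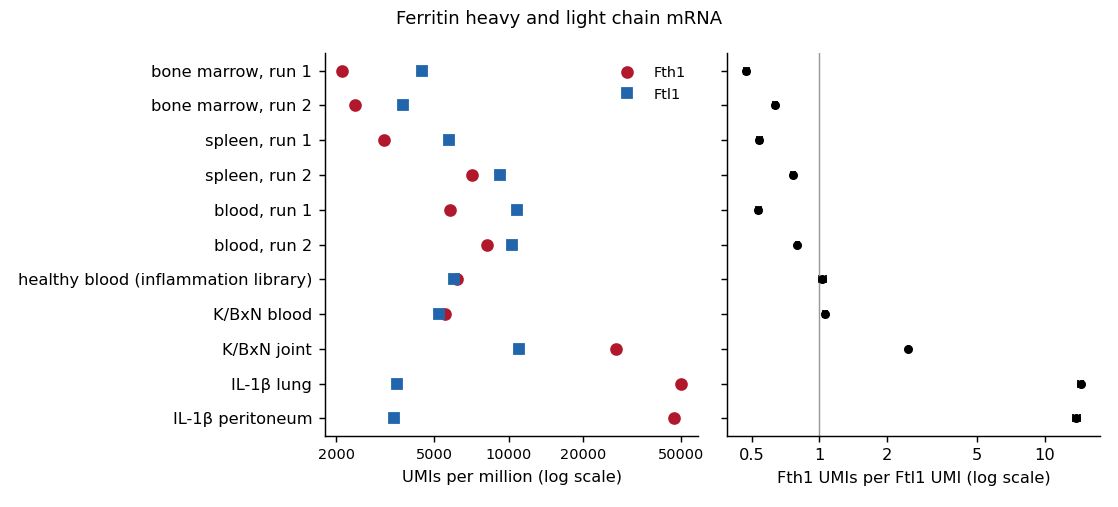
Left, CPM of Fth1 (circles) and Ftl1 (squares) on a log axis, in the 6 healthy libraries and the 5 conditions. Right, Fth1 UMIs for each Ftl1 UMI on a log axis with exact 95% intervals. The ratios lie between 0.47 and 0.80 in the healthy libraries. Within the inflammation library the ratio is 1.03 in healthy blood, 1.06 in arthritic blood, 2.48 in the joint, 14.4 in lung and 13.7 in peritoneum, and it is not compared with the healthy libraries.

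The share of cells with a UMI was taken at equal depth. A gene with a low mean level has a low share at this depth. A low share therefore does not show that few cells carried a difference. Cells of the inflammation library were randomly reduced to 1000 UMIs each. Too shallow for this were 155 cells of healthy blood, 140 of arthritic blood, 123 of joint, 94 of lung and 61 of peritoneum. At this depth the median cell held 6 Fth1 UMIs in healthy blood, 5 in arthritic blood, 20 in joint, 50 in lung and 47 in peritoneum. The 10th and 90th percentiles were 2 and 12 in healthy blood, 5 and 59 in joint and 18 and 92 in lung. The joint range held the medians of healthy blood and of lung, but not their whole ranges.

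Slc7a11 had a UMI in 13.6% of thinned healthy blood cells (interval 10.2 to 17.6), 22.1% in arthritic blood, 60.02% in joint (58.2 to 61.9), 76.9% in lung (71.6 to 81.7) and 68.4% in peritoneum (62.0 to 74.3). Sod2 had one in 2.26%, 1.93%, 5.23%, 48.6% (42.7 to 54.6) and 65.8% (59.3 to 71.9) of cells in the same order, and Txnrd1 in 1.98%, 2.52%, 6.18%, 33.9% and 36.4%. Without thinning, the share for Slc7a11 was 30.1% in healthy blood, 48.2% in arthritic blood, 81.3% in joint, 93.9% in lung and 89.4% in peritoneum. For Prdx6 the share was highest in joint, at 33.3% (31.6 to 35.1), against 28.7% in lung, 15.2% in peritoneum and 9.32% in healthy blood. Srxn1 had a UMI in 5.45% of joint cells (4.63 to 6.37) and 0.28% to 2.45% elsewhere.

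Free RNA was gauged in the healthy libraries, since in the inflammation library only 4 of 4856 cells had been assigned to other populations. In spleen of run 2 thinned to 500 UMIs, Slc7a11 had a UMI in 10.2% of neutrophils (median 775 UMIs before thinning) and 0.33% of cells with lymphocyte markers (median 1579). Fth1 had one in 92.4% and 61.5% of the same cells, and lymphocytes make ferritin of their own. Sod2 had one in 1.84% of neutrophils and 3.78% of the lymphocyte-marker cells, Prdx6 in 4.38% and 4.71%, and Txnrd1 in 1.54% and 1.40%, and whether lymphocytes make these mRNAs themselves was not tested. In bone marrow of run 2 the share for Prdx6 was 10.1% of neutrophils (9.08 to 11.1) and 4.66% of lymphocyte-marker cells (2.63 to 7.57).

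**Figure D5:**
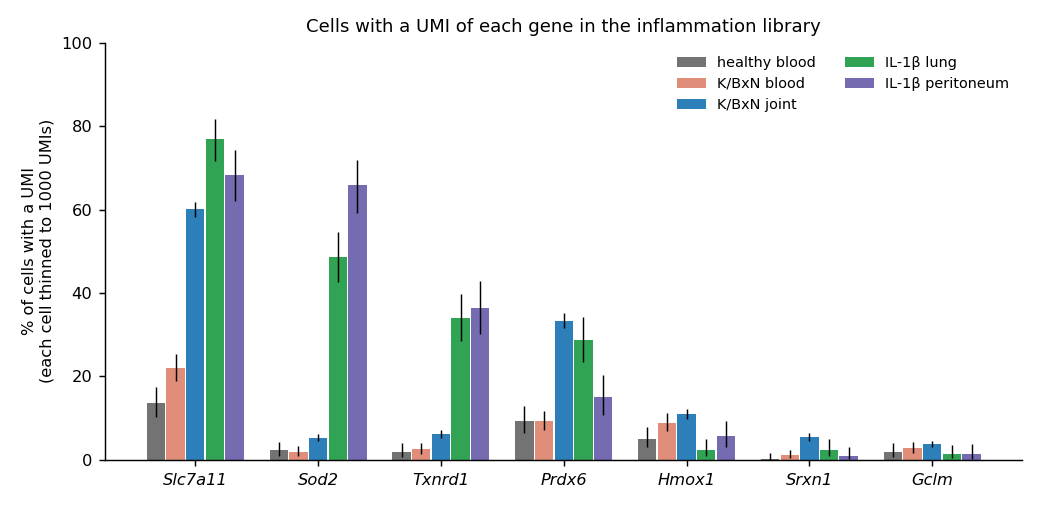
Share of cells with at least 1 UMI of each gene after each cell was thinned to 1000 UMIs, in percent, in the 5 conditions (bars from 0) with exact 95% intervals for counting error. Slc7a11 is found in most cells of joint, lung and peritoneum, Sod2 and Txnrd1 are far more frequent at the IL-1β sites than elsewhere, and Prdx6 is most frequent in joint and lung.

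The genes around these pathways were counted from lists. Of the listed genes, Chac1, Idh1 and Keap1 passed the filter in the inflammation library only through healthy blood, Mgst2 through arthritic blood, Prdx1 through the joint and Mt2 through lung, and the counts at the inflamed sites leave them out. List counts between healthy tissues and between classes are read against the shares over all genes, 11.7% higher and 9.94% lower in blood than in bone marrow, and 22.7% higher and 19.2% lower in granule-low cells. At the inflamed sites the shares over all genes were, in CPM, 9.83% higher and 21.4% lower in joint, 11% and 47.8% in lung, and 10.7% and 49.9% in peritoneum. Of 17 genes of iron handling, 9 were tested between tissues and 4 were called higher in blood than in bone marrow with none lower, 3 of them also in spleen (2.75% of all genes called there). They included the iron exporter Slc40a1 (log2 difference 1.72 ± 0.21, adjusted p = 0.0041) and transferrin, Trf (1.24 ± 0.24, adjusted p = 0.0134), while the iron chaperone Pcbp1 stood at -0.18. Slc40a1, Trf and 2 more of 7 tested were also higher in granule-low cells. At the inflamed sites Slc40a1 went opposite to Fth1. It stood at 805 CPM in healthy blood, 570 in arthritic blood, 312 in joint (2.58-fold lower, interval 2.40 to 2.78), 46.9 in lung (17.1-fold lower, 13.2 to 22.5) and 67.9 in peritoneum (11.9-fold lower, 9.19 to 15.5), and with TMM factors it was still lower, 1.95-fold in joint and 9.33-fold in lung. Of 8 listed genes compared, 0 were at least 2-fold higher and 1 lower in joint, 2 and 3 in lung and 2 and 2 in peritoneum, and with TMM factors 1 and 0, 4 and 1, and 4 and 1. Of the haem breakdown list, 3 genes were compared. In joint Hmox2 was 2.23-fold higher and Slc48a1 2.68-fold lower in CPM, and both also passed with TMM factors. All 3 (Hmox2, Slc48a1 and Blvrb) were at least 2-fold lower in CPM at both IL-1β sites, where 47.8% (lung) and 49.9% (peritoneum) of all genes were. With TMM factors only Blvrb (2.56-fold lower) passed in lung and only Slc48a1 (2.54-fold lower) in peritoneum.

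The glutathione list (16 genes) was mixed in healthy tissues. Of 13 tested, 2 were higher and 2 lower in blood than in bone marrow (11.7% and 9.94% of all genes), and of 9 tested, 5 were higher and 3 lower in granule-low cells (22.7% and 19.2%), among the higher ones glutathione reductase Gsr (0.99 ± 0.16, adjusted p = 4.96e-04) and Gpx4, which removes lipid peroxides (0.83 ± 0.13, adjusted p = 4.01e-04). Gpx1 (0.38 ± 0.16, adjusted p = 0.0789) did not pass. Of 7 compared in the inflammation library, 1 was at least 2-fold higher and 1 lower in joint, 2 and 4 in lung and 1 and 3 in peritoneum, and with TMM factors 2 and 0, 3 and 1, and 4 and 1. Gpx1 was at 1148 CPM in healthy blood, 450 in joint, 171 in lung and 283 in peritoneum. Slc3a2, the partner of Slc7a11, named after its values were seen, was at 40.0 in healthy blood, 413 in joint (10.3-fold, 7.71 to 14.2), 94.6 in lung (2.37-fold, 1.67 to 3.40) and 64.7 in peritoneum (1.62-fold, 1.08 to 2.43). Slc7a11 and Slc3a2 were thus in different proportion at the different sites.

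Of the thioredoxin and peroxiredoxin list (11 genes), 2 of 9 tested were higher in blood than in bone marrow and 4 lower, beside 11.7% and 9.94% of all genes. Methionine sulfoxide reductase Msrb1 (1.35 ± 0.24, adjusted p = 0.0113) and the thioredoxin-binding Txnip (2.30 ± 0.31, adjusted p = 0.0050) were higher, and Msra (-0.94 ± 0.26, adjusted p = 0.0422) lower. In granule-low cells 3 of 9 were higher, with Txnip at 2.35 ± 0.20 (adjusted p = 8.01e-06), and 2 lower, beside 22.7% and 19.2%. In joint 1 of 6 compared was at least 2-fold higher and none lower, in lung 0 and 1, and in peritoneum neither, and with TMM factors 1, 2 and 1 were higher and none lower. No gene of the superoxide dismutase and catalase list (4 genes, 3 tested between tissues and 1 in the inflammation library) was called in any comparison with a value.

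The NADPH supply list (7 genes, 6 tested) held enzymes of the pentose phosphate pathway, which feeds glutathione and thioredoxin reductases and the NADPH oxidase. In granule-low cells 4 were lower and 1 higher, beside 19.2% and 22.7% of all genes, among them transketolase Tkt (-1.50 ± 0.29, adjusted p = 0.0018), while Taldo1 was higher (1.19 ± 0.14, adjusted p = 7.78e-05). Against healthy blood, of the 5 genes other than Idh1, 3 were at least 2-fold lower in CPM in joint, 5 in lung and 4 in peritoneum, beside 21.4%, 47.8% and 49.9% of all genes, and none higher. With TMM factors these were 2, 3 and 1, those in joint being Pgls and Tkt (2.35-fold and 2.43-fold lower). Pgd was at 498 CPM in healthy blood, 280 in joint, 59.0 in lung and 98.7 in peritoneum, and with TMM factors it was still 4.59-fold lower in lung.

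Of the NRF2 regulators (9 genes), Bach1, a repressor of Hmox1, was higher in blood (1.15 ± 0.23, adjusted p = 0.0154) and in granule-low cells (1.23 ± 0.19, adjusted p = 3.97e-04), and the small Maf partner Mafg was lower in both (-1.41 ± 0.30, adjusted p = 0.0194, and -1.08 ± 0.28, adjusted p = 0.0097). Of 7 tested, 1 was higher and 1 lower in blood (11.7% and 9.94% of all genes), and 3 and 1 in granule-low cells (22.7% and 19.2%). Of 7 compared in the inflammation library, 4 were at least 2-fold higher in joint, 2 in lung and 3 in peritoneum, with none lower, and with TMM factors 4, 3 and 3. Nfe2l2 was at 231 CPM in healthy blood, 513 in joint (2.22-fold, 1.96 to 2.52), 462 in lung (1.998-fold, 1.72 to 2.32, just under the limit) and 922 in peritoneum (3.99-fold, 3.47 to 4.60). Of the other NRF2 targets (5 genes, 3 that passed), Osgin1 was at 94.2 in healthy blood, 215 in joint (2.28-fold higher, 1.87 to 2.80), 34.1 in lung and 44.6 in peritoneum. The transporter Abcc1 was at 4.44 in healthy blood, 11.7 in joint, 34.1 in lung and 87.0 in peritoneum, and Aldh3a2 at 36.4, 22.1, 5.30 and 7.43. The metallothionein Mt1, which binds zinc and copper, had 2 UMIs in healthy blood, 143 in joint (13.9 CPM), 1390 in lung (1052) and 45 in peritoneum (47.7). Mt2, which passed the filter through lung alone, had 0 UMIs in healthy blood, which allows up to 2.67 CPM at 3 counts, and 59 in lung (44.7).

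Over the 11 units the genes closest to Fth1 in profile were Mrpl52 (root mean square difference 0.25 on the log2 scale), Plek (0.29) and Hdc (0.30), of 2046 genes compared. Closest to Sod2 were Bcl2a1a (0.29), Cish (0.41) and Bcl2a1d (0.42). Closest to Slc7a11 were Srgn (0.35), Hcar2 (0.37) and Fth1 itself (0.40).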

How the data were processed

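The authors aligned droplet libraries made with 10x Genomics 3′ reagents to mm10 (GRCm38) with Cell Ranger and deposited UMI counts per gene symbol and cell, before their own cell filters, with a table giving each inflamed cell its hashtag condition and reference cell type. By the study's methods, healthy and inflammation libraries used different reagent versions, so no level was compared between the healthy libraries and the inflammation library. Whether UMI counting used strand is not given in the sources used here.

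UMI counts were summed over neutrophils per library. The 10 genes and the gene lists were chosen with earlier results of these data known. Healthy cells needed at least 3% of UMIs from S100a8 and S100a9. Cells were not checked for doublets beyond the authors' removal of hashtag doublets, and the upper limit on genes per cell was tried as an alternative. Tissues (3 contrasts, with the run as a block) and granule classes (with the library as a block) were tested with edgeR 4.0.16 (R 4.3.3): quasi-likelihood, TMM factors, filterByExpr and Benjamini-Hochberg adjustment at 0.05 over all genes tested. A run number marks the same mice by the study's methods, and deviations of same-run libraries from their tissue means correlated at 0.54 to 0.64 over 7809 genes. In the inflammation library, genes with a mean of at least 10 CPM (UMIs scaled to a total of 1000000) over the 5 conditions were compared by ratios with exact conditional 95% intervals (scipy 1.17.1). Srxn1 reached that mean only through the joint. A gene at 0 was set to a floor of 3 counts. Beside all 10 genes, up to 3 genes per list were named: those with the highest mean level over healthy libraries among genes called between tissues or at least 2-fold in a condition. Likeness was measured on log2(CPM + 10), centred within healthy libraries and within conditions, for genes with a mean of at least 50. Replicates are pools of mice, and p-values measure the spread between pools. On simulated counts, a 2-fold change was found in 5.49% of genes between blood and bone marrow (7407 genes) and in 51.1% between classes (5066 genes), and a 4-fold change in 61.5% and 85.2%. A missing call therefore does not show a lack of change. DESeq2 1.42.0 was run as an alternative.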

Additional observations from a re-analysis of the deposited data

Results flagged for a closer look

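The class difference of Gclm in spleen of run 1, -0.38 on the log2 scale of CPM, lay apart from those of the other 4 libraries, at 0.38 to 0.55, by Dixon's test. It rests on 21 UMIs in granule-low and 90 in granule-high cells. Of 8 genes examined in this way it was the 1 flagged, and chance alone flags about 1 in 20 groups.

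The class difference of Prdx5 differed between bone marrow and the other tissues by 0.88 on the log2 scale (edgeR interaction, adjusted p = 0.0210, bone marrow minus other tissues). Prdx5 was lower in granule-low cells in 5 of 5 libraries, least so in both bone marrow libraries.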

How the results depend on the processing

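Of 522 log2 differences of single genes recomputed under the alternatives, 439 kept their direction and their side of the threshold, 32 passed it anew, 17 no longer passed it and 34 changed direction. The cause was not tested in any case.

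Between blood and bone marrow 4 members and 1693 genes were called. Without the replicate block these were 0 and 164, and with single libraries left out they ranged from 0 to 8 members and from 0 to 2626 genes. Genes numbered 1055 without cells holding other lineages' markers and 742 on granule-low cells (the latter chosen after seeing the data). Between spleen and bone marrow, with 0 members and 215 genes, there were 4 and 868 without marked cells, 3 and 647 on granule-low cells, 1 member by DESeq2, 0 genes without the block, 115 with quality limits on cells, 140 higher and 13 lower genes without TMM factors (median of all genes 0.16), and 0 to 6 members and 0 to 1250 genes with libraries left out. Between spleen and blood, with 0 members and 4 genes (801 at an unadjusted p under 0.05), there were 28 genes by DESeq2, 18 without the filter on low counts, 19 at an S100a8 and S100a9 limit of 10%, 8 on granule-low cells, 0 without the block, and 0 to 1 members and 0 to 245 genes with libraries left out. With TMM factors 1 member passed 2-fold in arthritic blood. The block changed no call on single members between spleen and the other tissues.

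Direction changed for these log2 differences. Between blood and bone marrow (blood minus bone marrow), Sod2 came to 0.26 without TMM, 0.016 without the filter, 0.027 at an S100 limit of 1%, 0.35 without marked cells and 0.49 on granule-low cells, and ranged from -0.22 to 0.17 with libraries left out. Hmox1 came to -0.13 without marked cells and -0.32 on granule-low cells. For spleen minus blood, Fth1 came to 0.058 and Ftl1 to 0.0039 without marked cells, and to 0.055 and 0.025 on granule-low cells, where Prdx5 came to -0.024 and Hmox1 to 0.052. Sod2 came to -0.033 without TMM and Gclm to -0.0095 without marked cells. With libraries left out, Sod2 ranged from -0.13 to 0.26, Prdx5 from -0.21 to 0.83 and Gclm from -0.044 to 0.77. For spleen minus bone marrow, Sod2 came to -0.15 at an S100 limit of 10%, Txnrd1 to 0.073 without marked cells and 0.29 on granule-low cells, and Hmox1 to -0.20 and -0.27. With libraries left out, Sod2 ranged from -0.076 to 0.19, Txnrd1 from -0.49 to 0.078 and Hmox1 from -0.14 to 0.42. For granule-low minus granule-high cells, Gclm came to -0.038 by DESeq2 and -0.55 with bone marrow left out, and ranged from -0.27 to 0.25 with libraries left out.

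Depth limits Srxn1, Gclm and Sod2 most, with 5 to 29 UMIs each in healthy blood of the inflammation library.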
